A study of Mus musculus with 6 samples.

Results

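The vomeronasal type 1 receptor genes of the mouse were taken as all protein-coding genes whose symbol starts with Vmn1r in the RefSeq gene table of GRCm38.p6, the assembly behind mm10. There were 231 of them among 21900 protein-coding genes, and 229 could be placed on an assembled chromosome with a 5′ end. Vmn1r186 and Vmn1r187 were not analysed, since the table gives them positions in the first 3 Mb of chromosome 7, which were taken to be those of a patch sequence. The assay was ATAC-seq, a measure of chromatin accessibility. The transposase Tn5 inserts adapters where DNA is open, and a peak marks a stretch where such fragments pile up. Per the labels and methods, 3 libraries came from S7KO mice, which lack both copies of the histone deacetylase gene Sirt7, and 3 from WT mice, all of 1 inbred strain and all at postnatal day 5. Each library was made from 50000 cells of a testis suspension enriched for spermatogonia by differential plating, and 1 peak list was deposited per library. Replicate numbers (1, 2 and 4 for both genotypes) are those of the sample titles. The descriptions number the same libraries 2, 3 and 4 in both genotypes, which leaves the same pairs of equal numbers.

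Type 1 vomeronasal receptors are G protein-coupled receptors that detect pheromones and other social odours. They are made in the apical sensory neurons of the vomeronasal organ, where the G protein subunit Gnai2 and the channel Trpc2 carry the signal and each neuron uses a single receptor gene. The coding sequence of these genes lies in 1 exon, and the genes stand in tandem arrays that grew by duplication. The sampled testis cells are not vomeronasal neurons, and the family is used here as a reference of presumably silent genes. Expression was not measured in these files.

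The 229 genes were spread over a few chromosomes, with 124 on chromosome 7, 51 on chromosome 6, 36 on chromosome 13, 14 on chromosome 17, 2 on chromosome 4 and 1 each on chromosomes 1 and 18. Joining members less than 200 kb apart gave 15 clusters with 224 members, and 5 members stood alone. The median span of a member was 924 bp, and 203 of the 229 members spanned at most 1500 bp. The largest cluster held 70 members in 3.15 Mb of chromosome 7 (chr7:20101158-23251682). The cluster of chromosome 13 held 36 members (chr13:22087878-23250323).

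The sequences before these genes are shown for 6 members to make visible how unlike the starts of members from different places and how alike those of the largest cluster are. Each is the RefSeq promoter of GRCm38.p6, from 250 bases before to 50 bases after the annotated transcript start. It is printed 5′ to 3′ on the strand of the gene. In all but Vmn1r32 the last 50 bases begin with ATG, the letters of a start codon. The annotated start may thus be that of the coding sequence, and a transcript start further upstream was not tested. Capitals mark bases that lie in a run of 50 bases found more than once in the GRCm39 genome, where a read of that length could not be placed uniquely. Vmn1r1 and Vmn1r4 are shown because they were the members with a peak within 1 kb of the 5′ end in all 6 libraries. Vmn1r32, chosen after its values were seen, is the member whose peaks reached its annotated transcript start. Vmn1r91, Vmn1r240 and Vmn1r93 are the first 3 members of the 70-member cluster by position.
Vmn1r1 (chr1:182158049-182158348, minus strand): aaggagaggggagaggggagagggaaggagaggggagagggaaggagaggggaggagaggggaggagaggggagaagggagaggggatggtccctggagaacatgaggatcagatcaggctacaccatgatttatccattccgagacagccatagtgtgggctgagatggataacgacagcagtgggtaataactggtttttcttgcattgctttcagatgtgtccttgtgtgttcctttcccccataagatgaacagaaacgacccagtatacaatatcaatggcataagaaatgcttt
Vmn1r4 (chr6:56956263-56956562, plus strand): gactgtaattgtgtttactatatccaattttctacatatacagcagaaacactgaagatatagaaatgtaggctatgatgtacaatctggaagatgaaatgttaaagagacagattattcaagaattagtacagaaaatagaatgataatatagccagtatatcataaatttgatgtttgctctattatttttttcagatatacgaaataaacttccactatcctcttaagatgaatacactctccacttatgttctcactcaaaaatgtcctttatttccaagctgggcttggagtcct
Vmn1r32 (chr6:66559659-66559958, minus strand): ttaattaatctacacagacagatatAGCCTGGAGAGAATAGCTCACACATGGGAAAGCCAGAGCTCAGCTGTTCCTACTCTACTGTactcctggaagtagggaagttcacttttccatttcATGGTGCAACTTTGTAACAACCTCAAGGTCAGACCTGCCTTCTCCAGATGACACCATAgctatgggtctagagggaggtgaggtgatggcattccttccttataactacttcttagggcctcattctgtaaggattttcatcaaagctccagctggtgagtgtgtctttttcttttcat
Vmn1r91 (chr7:20100908-20101207, plus strand): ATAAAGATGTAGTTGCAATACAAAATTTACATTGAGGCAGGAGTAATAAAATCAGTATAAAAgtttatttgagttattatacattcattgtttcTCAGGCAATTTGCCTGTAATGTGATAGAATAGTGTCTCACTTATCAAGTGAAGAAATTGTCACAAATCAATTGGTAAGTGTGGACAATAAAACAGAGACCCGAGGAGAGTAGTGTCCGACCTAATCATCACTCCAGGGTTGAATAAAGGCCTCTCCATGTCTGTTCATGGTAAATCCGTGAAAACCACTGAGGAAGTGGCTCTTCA
Vmn1r240 (chr7:20122530-20122829, minus strand): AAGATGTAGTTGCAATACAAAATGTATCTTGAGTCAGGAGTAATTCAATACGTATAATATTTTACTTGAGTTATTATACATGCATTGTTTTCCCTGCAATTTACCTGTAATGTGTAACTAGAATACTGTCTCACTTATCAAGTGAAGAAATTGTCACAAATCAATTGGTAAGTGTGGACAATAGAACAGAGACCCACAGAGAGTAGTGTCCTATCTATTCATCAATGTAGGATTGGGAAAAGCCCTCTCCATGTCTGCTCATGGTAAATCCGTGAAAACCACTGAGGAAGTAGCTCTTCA
Vmn1r93 (chr7:20139039-20139338, minus strand): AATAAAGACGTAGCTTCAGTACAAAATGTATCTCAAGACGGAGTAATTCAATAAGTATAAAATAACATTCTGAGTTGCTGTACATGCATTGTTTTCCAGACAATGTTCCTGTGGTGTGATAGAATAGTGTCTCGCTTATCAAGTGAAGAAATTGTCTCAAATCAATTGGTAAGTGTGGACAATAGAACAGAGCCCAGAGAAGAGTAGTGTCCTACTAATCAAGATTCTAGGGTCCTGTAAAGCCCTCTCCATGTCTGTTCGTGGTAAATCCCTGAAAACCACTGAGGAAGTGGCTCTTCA

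The promoters of Vmn1r1 and Vmn1r4 held no base in a repeated run, and Vmn1r32 held 119 of 300. In Vmn1r91 268 of 300 bases were in repeated runs, and in Vmn1r240 and Vmn1r93 all 300 were. One run of Vmn1r93 had 23 copies in the genome, and its whole promoter was identical to that of Vmn1r114. Vmn1r91 and Vmn1r240 shared 86.3% of their bases by global alignment, whereas Vmn1r1 and Vmn1r4 shared 43.0%. Across the 68 members of the largest cluster with a promoter sequence, the median identity to the nearest other member was 100%, and 52 had an identical partner. Across the other 138 members with a sequence the median was 74.3%, and 2 had an identical partner.

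The annotated promoters of the family were poor in CpG. The median of the 206 members with a sequence was 1 CpG in 300 bases, no member had more than 6, and 44 had none (21.4%). Over all 17492 protein-coding promoters with a sequence the median was 13 CpG and 5.21% had none. The median GC content was 36.0% in members and 56.3% over all protein-coding promoters. Short motifs were searched on both strands as exact letters. The GC box GGGCGG, bound by SP factors, was in 0 of 206 member promoters and in 46.3% of all promoters. The TATA box letters TATAAA were in 42.2% of member promoters and in 13.3% of all promoters, and CCAAT was in 67.0% and 39.2%. The palindromic site of EBF factors, regulators of sensory neurons, was in 0 members and in 0.920% of all promoters, and TAATTA, a core of LIM homeodomain sites, was in 7.28% and 4.69%. These shares describe letters in the window and say nothing about binding. Copied promoters each counted, and 54 of the 206 were identical to that of another member. The shares were not adjusted for such copies or for the lower GC content of members. Where the annotated start is a start codon, the window may not hold the promoter, so these values describe sequence around annotated starts.

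Very few receptor genes had an accessible site at the annotated 5′ end in any library. Within 1 kb of the 5′ end, a peak was present for 4, 3 and 4 of 229 members in S7KO replicates 1, 2 and 4 and for 3, 2 and 4 members in WT replicates 1, 2 and 4. Over all 21439 protein-coding genes with a 5′ end, the share with such a peak was 70.1%, 70.6%, 70.8%, 70.2%, 69.1% and 70.7% in the same order of libraries. The highest count of members, 4 of 229, is a share of 1.75% with a 95% Wilson interval of 0.681% to 4.40%, and the lowest, 2 of 229, is 0.873% with an interval of 0.240% to 3.13%. Intervals here cover counting error only. They treat members as independent, although 83 of 206 member promoters were at least 95% identical to that of another member. The share of members was 1.46% ± 0.357 (SD, n = 6 libraries) and that of the other 21210 protein-coding genes 71.0% ± 0.647. It was lower by 69.6 percentage points, in 6 of 6 libraries (exact two-sided sign-flip permutation test, p = 0.0312, adjusted p = 0.0365). The p of 0.0312 is the smallest that 6 libraries allow.

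Widening the window added members, but few. Within 3 kb a peak was present for 7, 6 and 5 members in S7KO replicates 1, 2 and 4 and for 7, 2 and 8 members in WT replicates 1, 2 and 4, against 76.0%, 76.5%, 76.7%, 76.0%, 74.9% and 76.7% of all protein-coding genes. WT replicate 2 stood lowest among members, and it also had the shortest peak list, 105754 peaks against 118912 to 133695 in the other libraries. The mean was 2.55% ± 0.933 for members and 76.9% ± 0.687 for the other protein-coding genes (n = 6 libraries, lower by 74.4 points in 6 of 6 libraries, exact two-sided sign-flip permutation test, p = 0.0312, adjusted p = 0.0365). Every library is its own control in this comparison.

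**Figure D1:**
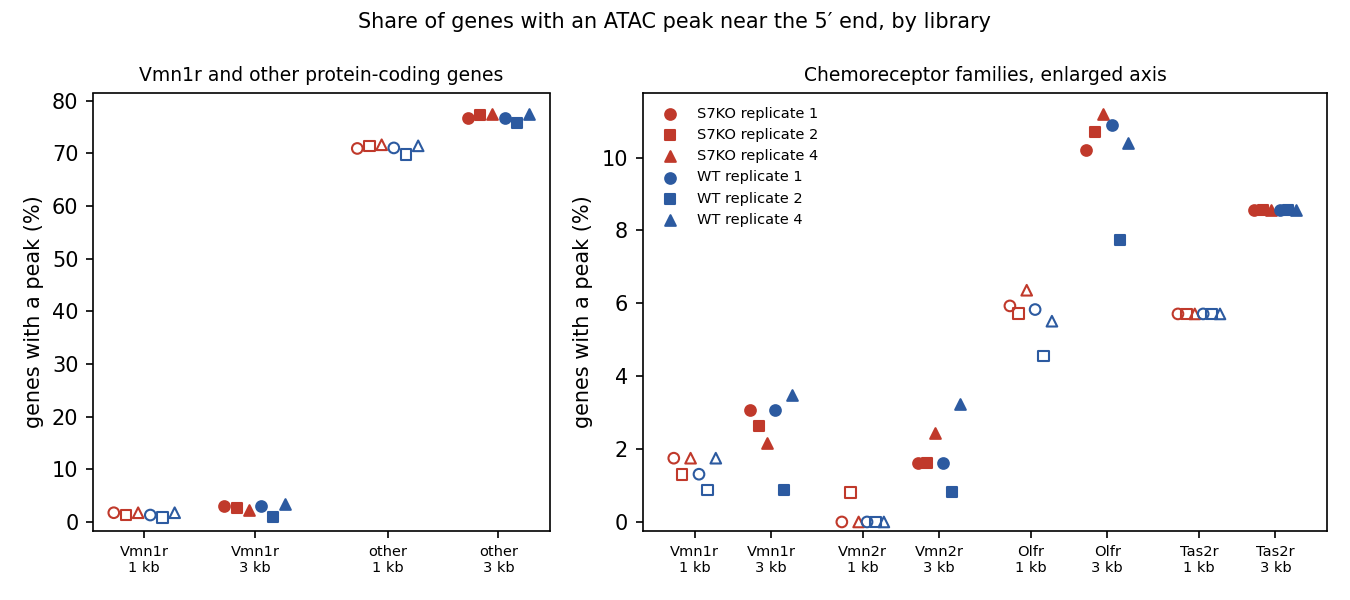
Share of genes (%) with an ATAC peak within 1 kb (open symbols) or 3 kb (filled symbols) of the 5′ end, 1 point per library, S7KO in red and WT in blue. Members of Vmn1r lie between 0.873% and 3.49% and other protein-coding genes between 69.8% and 77.5%, and the right panel enlarges the axis for 4 chemoreceptor families.

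Gene by gene, 225 of 229 members (98.3%) had no peak within 1 kb in any library, where 27.7% of all protein-coding genes had none, 2 had one in some libraries (background 4.16%) and 0 in 3 of 3 S7KO and 0 of 3 WT libraries (background 0.0327%). Within 3 kb, 219 of 229 members (95.6%) had no peak in any library, where 21.8% of all protein-coding genes had none. Vmn1r1 and Vmn1r4 had one in all 6 libraries (0.873% of members), where 74.0% of all protein-coding genes did. The remaining 8 members had a peak in 1 to 5 libraries (background 4.24%). No member had a peak within 3 kb in 3 of 3 S7KO and 0 of 3 WT libraries (background 0.0280%) or the reverse (background 0%).

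Subsets of members set beside the like subset of other genes gave the same direction. Among the 203 members that spanned at most 1500 bp, 0.821% ± 0.254 had a peak within 1 kb (SD, n = 6 libraries), against 21.7% ± 0.686 of 1763 other protein-coding genes of such short span. For 206 members with a promoter sequence the share within 1 kb was 1.62% ± 0.396, against 28.0% ± 1.19 of the 6024 other protein-coding genes whose promoters held at most 6 CpG, the highest number in any member, and against 92.0% ± 0.337 of the 11262 others with more. The limits of 1500 bp and 6 CpG were chosen with values in view, so these shares are given with no test.

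The authors kept uniquely mapped reads, and only 73 of 206 member promoters (35.4%) had every 50-base run at most once in GRCm39, against 86.5% of protein-coding promoters. Over those 73 members the share with a peak within 3 kb was 5.94% ± 1.87, between 2 and 6 members per library, against 84.1% ± 0.688 of 15064 other protein-coding genes filtered alike. The difference within 3 kb was then -78.2 points (exact two-sided sign-flip permutation test over 6 libraries, p = 0.0312, adjusted p = 0.0365), and 67 of the 73 members had no peak within 3 kb in any library. The mice were also of another strain than the C57BL/6J reference, whose arrays can differ, and the part of that in the peak counts was not tested.

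Other chemoreceptor families gave low shares too. Type 2 vomeronasal receptors (Vmn2r), which detect peptides in basal vomeronasal neurons, had a peak within 3 kb in 1.90% ± 0.840 of 123 genes. The difference to Vmn1r was 0.650 points (SD 0.731 over 6 libraries, Vmn1r lower in 1 of 6) and did not pass the exact sign-flip permutation test (p = 0.125). It turned to -3.13 points, lower for Vmn1r (p = 0.0312, exact sign-flip permutation test), when a peak within 3 kb of either end of the gene counted. It was 4.51 points, higher for Vmn1r, over the 26 members that spanned more than 1500 bp, set against all 123 Vmn2r genes. Without the 70 members of the largest cluster it was 1.77 points (p = 0.0312 for each, exact sign-flip permutation test). No order of these families thus held under all settings. Among the 26 long members only Vmn1r4 and Vmn1r32, described below, had a peak within 3 kb, 1 or 2 of them per library. Odorant receptors (Olfr) stood at 10.2% ± 1.26 of 944 genes and bitter taste receptors (Tas2r) at 8.57% of 35 genes, 3 genes in every library. The difference of Vmn1r to Olfr was -7.64 points and that to Tas2r -6.02 points, each below 0 in 6 of 6 libraries (exact sign-flip permutation test, p = 0.0312 and adjusted p = 0.0365 for each). Over members that spanned more than 1500 bp, set against all Olfr and all Tas2r genes, the differences shrank to -3.78 and -2.16 points. With both families limited to unique promoters, that to Tas2r was -3.74 points. Each of these had p = 0.0312 by the exact permutation test.

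The nearest peak to a receptor gene was usually far away. Its median distance from the 5′ end was 138, 139 and 146 kb in S7KO replicates 1, 2 and 4 and 124, 165 and 127 kb in WT replicates 1, 2 and 4. Without the 70 members of the largest cluster it was 60.2 to 98.8 kb. The median was 81.4 to 131 kb for Vmn2r, 28.6 to 47.0 kb for Olfr, 18.2 to 23.9 kb for Tas2r and 0 for the other protein-coding genes. In the 5 kb centred on the 5′ end, Vmn1r genes had 3.93 ± 1.20 peaks per Mb (SD, n = 6 libraries), and in bins from 5 to 50 kb away they had 5.56 ± 0.803. Other protein-coding genes had 162 ± 2.12 and 71.4 ± 5.11 in the same bins. The rise at the 5′ end seen there was not seen at Vmn1r genes. In the same bins Vmn2r had 1.09 and 6.80, Olfr 16.5 and 16.3 and Tas2r 17.1 and 23.9. The lack of a clear rise was thus not particular to Vmn1r.

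**Figure D2:**
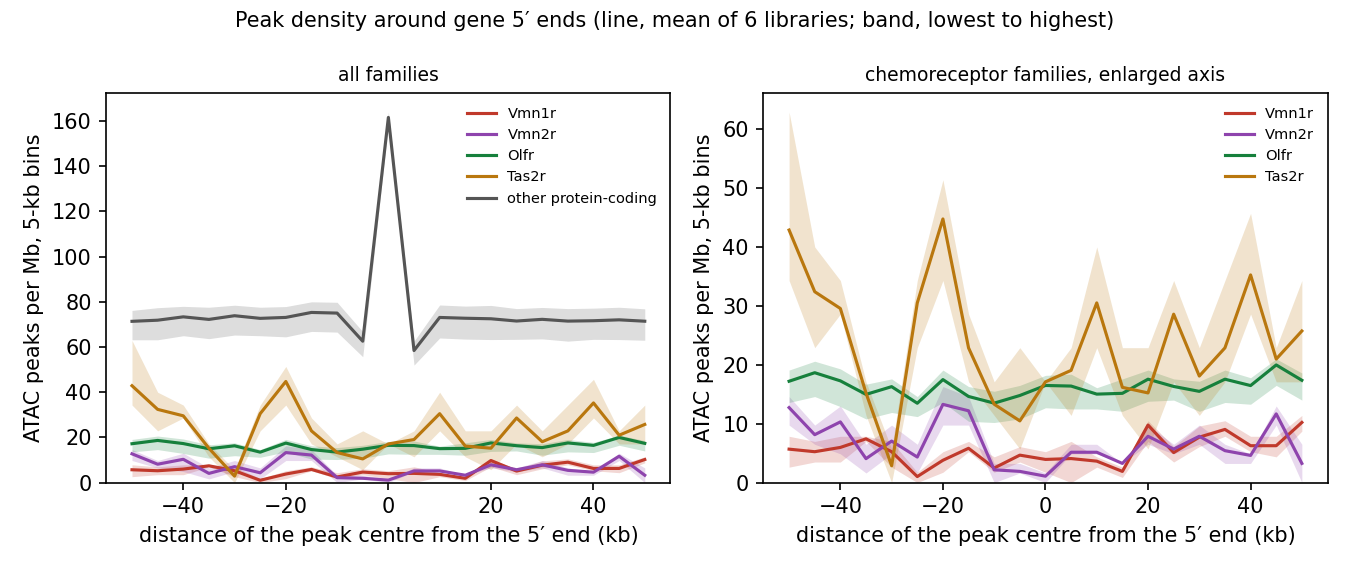
Density of ATAC peaks (peaks per Mb in 5-kb bins) by distance of the peak centre from the 5′ end (kb, positive within and beyond the gene), as the mean of 6 libraries with the lowest to highest library as a band. Other protein-coding genes reach 162 peaks per Mb at the 5′ end, whereas the Vmn1r line has no maximum there.

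Whole receptor clusters were poor in peaks, not only their 5′ ends. The 15 clusters together covered 9.45 Mb and held 32, 31 and 31 peaks in S7KO replicates 1, 2 and 4 and 33, 17 and 33 in WT replicates 1, 2 and 4. This is 3.12 ± 0.655 peaks per Mb (SD, n = 6 libraries), against 46.5 ± 4.03 over the assembled chromosomes and 61.9 ± 2.64 in the flanks, which reached up to the length of the cluster on each side and left out other Vmn1r clusters. Both differences had the same sign in 6 of 6 libraries (-43.4 and -58.8 peaks per Mb, exact two-sided sign-flip permutation test, p = 0.0312, adjusted p = 0.0365 for each). Flanks of neighbouring clusters could overlap, and the shared sequence then counted for each cluster. Peaks covered 0.121% to 0.243% of the bases of clusters, 5.34% to 6.47% of the flanks and 3.07% to 4.06% of the chromosomes. The peaks that were there ranked low in their lists. Ranked by −log10 q from 0% (strongest) to 100%, the median cluster peak stood at 50.6% in WT replicate 2 and at 66.0% to 74.9% in the other 5 libraries.

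The 70-member cluster held 0 peaks in each of the 6 libraries. A limit of 3 counts over its full 3.15 Mb is 0.952 peaks per Mb. That is no bound on its density, since a count limit holds only where unique reads can be placed. The nearest peaks of any library lay 135694 bp before and 105945 bp after it. It lay inside a stretch of 3.39 Mb with no peak in any library, the 4th longest on the chromosomes. Most of this cluster could not be read with unique reads, since 10.5% of its 100-base runs and 4.67% of its 50-base runs occurred once in GRCm39, against 90.8% and 86.0% across the genome, and the part of this in the 0 was not tested. The 16-member cluster next to it (chr7:23504642-24055691) also held 0 peaks in all 6 libraries, with 87.7% of its 100-base runs found once and 77.3 peaks per Mb in its flanks. In the 12 clusters with at least 80% of 100-base runs found once, the density was 5.16 ± 1.02 peaks per Mb (SD, n = 6 libraries), against 50.3 ± 2.35 in their flanks.

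**Figure D3:**
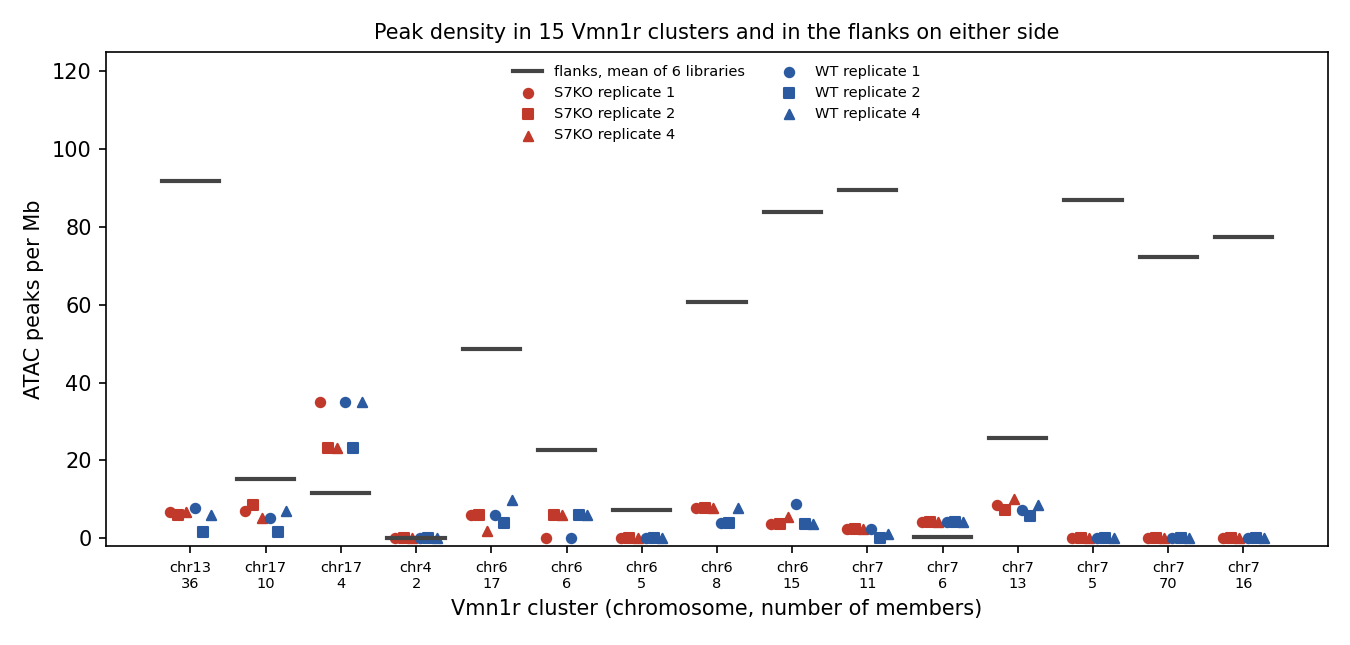
ATAC peaks per Mb in the 15 Vmn1r clusters, labelled by chromosome and number of members, with 1 point per library (S7KO red, WT blue) and a bar for the mean of the flanks. The clusters of 70 and 16 members on chromosome 7 are at 0 in all 6 libraries beside flanks of 72.3 and 77.3 peaks per Mb.

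The clusters differed among themselves. Of the 15, 8 had a peak in every library and 5 in none. The 36-member cluster of chromosome 13 had 6.88, 6.02 and 6.88 peaks per Mb in S7KO replicates 1, 2 and 4 and 7.74, 1.72 and 6.02 in WT replicates 1, 2 and 4, beside 91.8 in its flanks. The 17-member cluster of chromosome 6 (chr6:56923914-57432602) had 1.97 to 9.83, beside 48.6. Among clusters of 5 or more members the highest mean was 7.93 peaks per Mb, in a 13-member cluster of chromosome 7 (chr7:11669599-12362764), and 4 such clusters were at 0. The flanks were lower than the cluster in 2 cases, a 4-member cluster of chromosome 17 (29.0 peaks per Mb against 11.6) and a 6-member cluster of chromosome 7 (4.20 against 0.350), and both were at 0 in a 2-member cluster of chromosome 4. With 2 or 3 peaks per library in the first and 2 in the second, both rest on few peaks.

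**Figure D4:**
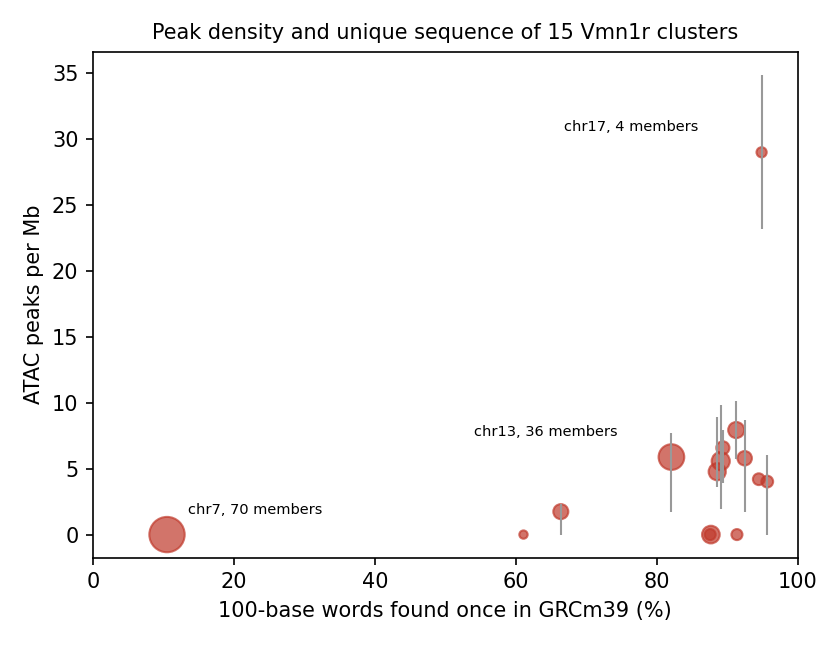
Mean ATAC peaks per Mb of each Vmn1r cluster (vertical lines, lowest to highest library) against the share (%) of its 100-base runs found once in GRCm39, with the area of a point growing with the number of members. The 70-member cluster lies apart at 10.5%, and clusters above 80% range from 0 to 29.0 peaks per Mb.

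Merging the peaks of the 6 libraries gave 47 regions inside clusters. Of these, 14 (29.8%) were called in all 6 libraries, 23 (48.9%) in 2 to 5 and 10 (21.3%) in 1. Over the 158725 regions of all chromosomes the shares were 57.1%, 29.2% and 13.6%. No region in a cluster was called in 3 of 3 S7KO and 0 of 3 WT libraries (background 0.416%) or the reverse (background 0.0743%). Only 3 of the 47 lay within 1 kb of the 5′ end of a member and 8 within 3 kb. Of the 14 regions called in all 6 libraries, 13 were more than 3 kb from any member, and 6 were within 1 kb of the 5′ end of another gene. The strongest lay over the 5′ end of Ppp2r1a, which encodes the scaffold subunit of protein phosphatase 2A and sits in a chromosome 17 cluster, at a median rank of 0.321%. The next was at the shared start of Nt5c3, a pyrimidine nucleotidase gene, and Vmn1r4 at 0.457%, followed by that of the zinc finger gene Zik1 at 2.97%. The other 3 lay at pseudogenes (Gm5307, Gm20426 and Gm3836). The 3 strongest regions of the clusters thus lay at starts of genes that are not receptors.

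The peak of Vmn1r4 lay at a start that this gene nearly shares with a neighbour. In the gene table its 5′ end (chr6:56923914-56957608, plus strand) lies 94 bp from that of Nt5c3 on the opposite strand, and peaks of 1144 to 1220 bp covered it in all 6 libraries with a fold over background of 6.08 to 6.42 and ranks of 0.379% to 0.550%. The promoter table places the start of the receptor transcript more than 30 kb further on, at the sequence shown above. No library had a peak within 3 kb of that annotated start. It lies at an ATG and may be a start codon, so it need not be where transcription starts. By annotated transcript starts in place of gene ends, 1 of 206 members, Vmn1r1, had a peak within 1 kb in all 6 libraries. The mean share within 1 kb was then 1.13% ± 0.396.

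Vmn1r1, a stand-alone gene of chromosome 1 (chr1:182157178-182158098, minus strand), was the member with a peak of its own in every library. The peak began 724, 722 and 714 bp upstream of the 5′ end in S7KO replicates 1, 2 and 4 and 722, 722 and 712 bp upstream in WT replicates 1, 2 and 4, so it lay outside the promoter sequence shown above. It was 223 to 346 bp wide with a fold of 2.87 to 3.81. Its rank was 75.8%, 61.0% and 76.6% in S7KO and 67.3%, 57.9% and 69.6% in WT, in the lower part of every list, and the genotypes overlapped. The nearest 5′ end of another gene, the pseudogene Gm17968, lay 29909 bp away.

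A pair of members of the chromosome 13 cluster had a peak in every library but WT replicate 2. For Vmn1r191 it began 2307, 2318 and 2281 bp upstream in S7KO replicates 1, 2 and 4 and 1997 and 2365 bp upstream in WT replicates 1 and 4, with ranks between 18.1% and 55.1%. For Vmn1r198 it began 844, 1005 and 880 bp upstream in S7KO and 949 and 928 bp upstream in the same WT libraries, with ranks between 66.0% and 95.8%. The −log10 q of Vmn1r191 was 6.95 to 21.2. That of Vmn1r198 was 2.41, 2.82 and 3.91 in S7KO and 5.05 and 1.81 in WT replicates 1 and 4, so only S7KO replicate 4 and WT replicate 1 reached 3. In WT replicate 2 the nearest peaks of these genes lay 127943 and 139512 bp away. Genotypes did not separate at either gene.

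Vmn1r32 was the member whose peaks touched the annotated transcript start itself. Among the members whose sequence is shown, only its annotated start was not at an ATG. Peaks covered the 5′ end in S7KO replicates 2 and 4 and in WT replicate 4 and came within 29 bp of it in S7KO replicate 1, whereas the nearest peaks of WT replicates 1 and 2 lay 16804 and 16787 bp away. Their ranks were 94.8%, 87.5%, 88.4% and 94.0% and their folds 2.35 to 2.51, and none of the 4 reached a −log10 q of 3. The count of 3 S7KO libraries against 1 WT library became 3 against 0 when WT replicate 4 was left out. The 5 other members had a peak within 3 kb in 3 libraries (Vmn1r27 and Vmn1r234) or in 1 (Vmn1r9, Vmn1r12 and Vmn1r54). At a −log10 q of at least 3, 0 libraries kept a peak for Vmn1r27, Vmn1r9 and Vmn1r54, and 1 did for Vmn1r234. The single peak of Vmn1r12, in WT replicate 4, ranked at 44.9%.

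**Figure D5:**
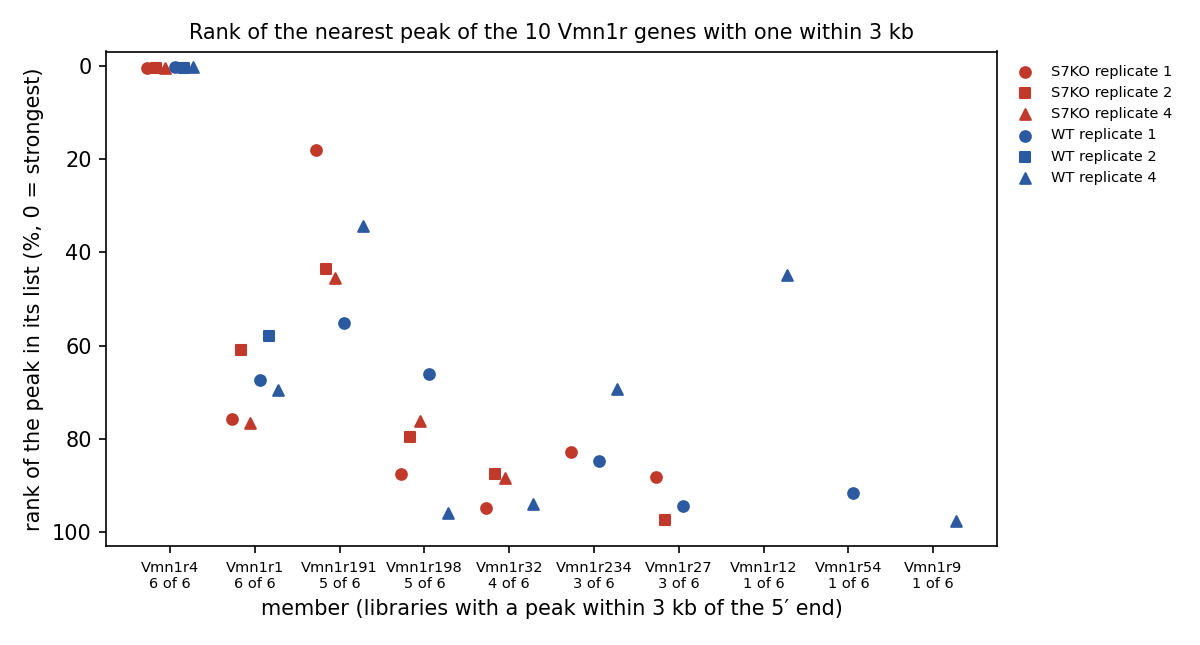
Rank of the nearest peak in its library's list (%, 0 at the top is the strongest by −log10 q) for the 10 Vmn1r genes with a peak within 3 kb of the 5′ end, 1 point per library with such a peak. Vmn1r4 lies at 0.379% to 0.550%, and the peaks of the other members lie at 18.1% or weaker.

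S7KO and WT libraries did not differ in these measures beyond the spread between libraries. The share of members with a peak within 1 kb was 1.60% ± 0.252 in S7KO and 1.31% ± 0.437 in WT (n = 3 each, difference 0.291 points, exact two-sided permutation test, p = 0.700, adjusted p = 1). Within 3 kb it was 2.62% ± 0.437 and 2.47% ± 1.40 (difference 0.146 points, exact permutation test, p = 1). Cluster density was 3.31 ± 0.0611 and 2.93 ± 0.977 peaks per Mb (difference 0.388, exact permutation test, p = 1). With 3 libraries against 3 the smallest p this test can give is 0.1, so no difference could have passed 0.05. WT replicate 2 decided the direction of 2 of these differences. Without it, S7KO minus WT was -0.655 points within 3 kb and -0.176 peaks per Mb, and without S7KO replicate 1 it was -0.0728 points within 3 kb. In bulk libraries, a site open in few cells and a site weakly open in many cannot be told apart.

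Most of a list of vomeronasal signalling genes and neuron regulators had peaks in these testis libraries, as did most protein-coding genes. Of 10 signalling genes, 8 had a peak within 1 kb of the 5′ end in all 6 libraries, where 68.2% of all protein-coding genes did. They were the G protein subunit genes Gnai2, Gnao1, Gnb1 and Gng8, the phospholipase gene Plcb2, the calcium release channel gene Itpr3, the transduction channel gene Trpc2 and the chloride channel gene Ano2. Omp, the olfactory marker protein gene, had one in 4 libraries within 1 kb and in 6 within 3 kb, and Ano1 had none. Of 13 regulators of olfactory and vomeronasal neurons, 12 had a peak within 1 kb in all 6 libraries, among them Lhx2, Ebf1, Bcl11b and Meis2, and Ldb1 had one within 3 kb. Many of these genes are used in other tissues, and a peak does not show expression.

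The same held for markers of the sampled cells. All 12 spermatogonia markers, among them Zbtb16, which encodes PLZF, had a peak within 1 kb in all 6 libraries, but so did 4 of 4 Sertoli, 2 of 4 Leydig and 2 of 2 myoid markers, and 4 of 4 Leydig markers did within 3 kb. Over all protein-coding genes these shares were 68.2% within 1 kb and 74.0% within 3 kb. The presence of a peak therefore did not tell germ cells from somatic testis cells. The 5′ end of Sirt7 itself had a peak within 1 kb in 6 of 6 libraries, which is no check of the deletion. Vmn1r pseudogenes, for which no strand was used, had a peak within 3 kb of either end in 2.90% to 6.52% of 138 pseudogenes per library, against 0.873% to 3.49% of the members.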

How the data were processed

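ATAC-seq peak lists of 3 S7KO and 3 WT libraries of postnatal day 5 spermatogonia were used. The authors trimmed reads (Trim Galore 0.6.6), aligned them to mm10 (Bowtie2 2.4.4.1), kept uniquely mapped reads without duplicates or mitochondrial reads, shifted the Tn5 ends, kept fragments of a set length range and called broad peaks for each library with MACS2 2.2.5. The methods state a lower length limit that drops the shortest fragments, whereas the paper's results describe peaks called on merged nucleosome-free profiles. Which fragments gave the lists cannot be told from them. Each deposited list holds, per peak, the authors' display score, fold (a ratio of pileup to local background) and −log10 of p and q. The lists hold no reads, so depth is unknown and the number of peaks limits precision. Coordinates are mm10, since the largest on chromosome 1 was 195242313.

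Gene positions came from the RefSeq table of GRCm38.p6. The strand came from RefSeq promoter sequences (206 members) or from the GENCODE gene of that symbol (23 members), and the 206 with both had the same strand. A 5′ end was had for 97.9% of protein-coding genes. Any base of a peak within 1 or 3 kb counted. Runs of 50 and 100 bases were counted on both strands of GRCm39, at every position of promoters and every 500 bp of clusters, since no mm10 genome was at hand. Promoter identity was from global edit distance (edlib 1.3.9.post1).

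Genotypes were set against each other by exact permutation (two-sided, 20 assignments), and members with references by an exact two-sided sign-flip test over 64 sign patterns, with Benjamini-Hochberg adjustment over 3 and 7 tests (Python 3.11.15, numpy 2.4.6, pandas 2.3.3, scipy 1.17.1). The study calls the ATAC libraries independent biological replicates, and states that each replicate came from its own mouse for the ChIP-seq of these cells. For the ATAC libraries it was not found stated whether 1 animal or a pool gave each. The scripts were tested on simulated peaks. Named members are those with a peak within 1 kb in all 6 libraries, and the clusters named are the 4 with most members and those of highest and lowest density among clusters of 5 or more. The other members with a peak within 3 kb, and the clusters that go against their flanks, were named after their values were seen. Members, gene lists and tests were chosen with earlier results of these data known. Alternatives were the peak threshold, peak centres, either gene end, equal list lengths, gene span, unique promoters, transcript starts, cluster gaps, base coverage and leaving out each library.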

Additional observations from a re-analysis of the deposited data

How the results depend on the processing

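Over the 10 tested comparisons, 140 alternative fits kept the direction of the reported value in 131 cases, turned it in 6 and gave a difference of exactly 0 in 3. The 3 were differences between S7KO and WT, within 1 kb with peaks of −log10 q of at least 3 and within 1 and 3 kb over unique promoters. The difference between S7KO and WT within 3 kb turned to -0.146 points with peaks of −log10 q of at least 3, to -0.0728 without S7KO replicate 1 and to -0.655 without WT replicate 2, and the cluster density difference turned to -0.176 peaks per Mb without WT replicate 2, and none of these had passed the test. The difference to Vmn2r turned to -0.0976 points at −log10 q of at least 3 and to -3.13 with either gene end. It grew past the threshold to 4.51 over members spanning more than 1500 bp, with the Vmn2r genes not limited by span. Without the largest cluster, a setting added after seeing the data, it grew to 1.77, also past the threshold. The cause was not tested. Leaving out 1 library, the genotype differences ranged from 0.0728 to 0.509 points within 1 kb, from -0.655 to 0.655 points within 3 kb and from -0.176 to 0.670 peaks per Mb, none past the test.

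Leaving out 1 library, each comparison with a reference that had passed could only reach an exact sign-flip permutation p of 0.0625, the smallest that 5 libraries allow. The differences then ranged from -69.7 to -69.4 points within 1 kb and from -74.5 to -74.2 within 3 kb of other genes, from -44.4 to -42.6 peaks per Mb against the chromosomes, from -59.4 to -58.3 against flanks, from -7.80 to -7.36 points against Olfr and from -6.21 to -5.69 against Tas2r. Members with a peak in all libraries numbered 1 instead of 2, for both windows, over spans above 1500 bp and by transcript starts, another setting added after seeing the data. Leaving out 1 library gave 2 to 4 within 3 kb, 4 without WT replicate 2. Members with no peak within 3 kb numbered 67 over unique promoters and 24 over long spans, since these settings test fewer genes. Members with a peak in every library of one genotype only numbered 0 to 1, 1 without WT replicate 4.

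Deviations of same-numbered S7KO and WT libraries had correlations of 0.0849, -0.0122 and 0.171. Whether such libraries shared a preparation was not found stated, and correlations of this kind cannot decide it. With the replicate block the genotype differences were unchanged at 0.291 and 0.146 points and 0.388 peaks per Mb (exact permutation p of 0.500, 1 and 1, smallest possible 0.25).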
